A study of Mus musculus with 12 samples.

Results

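Cytochrome P450 enzymes of families 1 to 3 were examined in the livers of mice lacking Phgdh in hepatocytes and of their Floxed littermates. Members were all genes whose RefSeq symbol begins with Cyp1, Cyp2 or Cyp3 followed by a subfamily letter and a number, without Cyp2e1 and Cyp1a2. Of 32524 genes on the array, 54 met this rule through 69 probes, and 43 of them were among the 16915 genes that were tested. Phgdh encodes the first enzyme of serine synthesis from a glycolytic intermediate. All mice were male C57BL/6 animals, 30 weeks old, fed a chow with 20% casein, and every mouse carried Phgdh flox/flox. The 6 LKO mice had in addition 1 Alb-Cre allele (Alb +/Cre;Phgdh flox/flox), in which the albumin promoter drives Cre in hepatocytes, so other liver cells keep Phgdh. The 6 Floxed mice had no Cre, so that the Cre transgene itself and the loss of Phgdh cannot be told apart. Total RNA of whole liver was hybridized in a single color to 12 Agilent arrays, each holding the RNA of 1 mouse. In such bulk RNA, fewer cells of a type and less RNA per cell cannot be told apart.

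P450 enzymes are haem proteins of the endoplasmic reticulum that oxidize drugs, steroids, bile acids and fatty acids, using electrons from the reductase Por. Hepatocytes hold most of the body's supply, and xenobiotics raise the transcription of many members through the aryl hydrocarbon receptor (Ahr), the constitutive androstane receptor (CAR, Nr1i3) and the pregnane X receptor (PXR, Nr1i2). In mice several members also differ between the sexes, because the pulses of growth hormone in males, read through Stat5 proteins, hold female-predominant genes low and male-predominant genes high.

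Promoter sequences are shown for 2 groups of members on which the results turn, the expressed Cyp2b genes, whose levels varied together from mouse to mouse, and Cyp2d9, the single member called between genotypes, with Cyp2d11 of the same cluster. Each is the 250 bases before the transcript start of the RefSeq promoter table for GRCm38.p6, where 45 of the 54 members had an entry, given 5′ to 3′ on the strand of the gene. The windows lie at chr7:25897408-25897657 (Cyp2b10), chr7:26061245-26061494 (Cyp2b13), chr7:26173159-26173408 (Cyp2b9) and chr15:82452127-82452376 (Cyp2d9) on the plus strand, and at chr15:82394023-82394272 on the minus strand (Cyp2d11). For Cyp2b9 and Cyp2b13 the RefSeq gene as a whole starts at another base than the transcript used for the window. Capitals mark AGGTCA, a half-site of nuclear receptors, in Cyp2b promoters and TTCCGG, the core of ETS factor sites, in Cyp2d promoters, each searched on both strands.
Cyp2b9: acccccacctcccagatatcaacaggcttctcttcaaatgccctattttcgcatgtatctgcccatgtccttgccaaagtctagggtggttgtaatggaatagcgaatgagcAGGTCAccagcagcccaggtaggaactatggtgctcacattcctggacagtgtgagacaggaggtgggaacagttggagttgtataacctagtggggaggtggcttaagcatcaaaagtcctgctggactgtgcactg
Cyp2b13: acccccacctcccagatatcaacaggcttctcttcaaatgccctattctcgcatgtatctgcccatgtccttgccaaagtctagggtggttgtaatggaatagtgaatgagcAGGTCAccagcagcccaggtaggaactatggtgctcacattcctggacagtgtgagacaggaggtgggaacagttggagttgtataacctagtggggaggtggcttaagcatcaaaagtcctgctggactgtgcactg
Cyp2b10: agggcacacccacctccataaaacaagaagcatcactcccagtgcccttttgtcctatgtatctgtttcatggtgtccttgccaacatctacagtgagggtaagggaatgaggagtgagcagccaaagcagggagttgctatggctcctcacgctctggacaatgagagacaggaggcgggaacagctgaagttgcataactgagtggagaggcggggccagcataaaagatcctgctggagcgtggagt
Cyp2d9: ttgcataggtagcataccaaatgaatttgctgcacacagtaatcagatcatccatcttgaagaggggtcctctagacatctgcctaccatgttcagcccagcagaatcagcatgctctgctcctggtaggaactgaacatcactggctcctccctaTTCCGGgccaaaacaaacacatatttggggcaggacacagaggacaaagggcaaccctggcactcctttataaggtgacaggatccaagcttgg
Cyp2d11: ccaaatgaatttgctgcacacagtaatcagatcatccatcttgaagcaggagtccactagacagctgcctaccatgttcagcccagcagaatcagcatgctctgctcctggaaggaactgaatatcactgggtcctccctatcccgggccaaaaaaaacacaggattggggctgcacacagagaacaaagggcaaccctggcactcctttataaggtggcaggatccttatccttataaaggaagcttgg
The windows of Cyp2b9 and Cyp2b13 were identical at 248 of 250 bases (99.2%), while each was 70.0% identical to that of Cyp2b10. The window of Cyp2d9 was 82.3% identical to that of Cyp2d11 and as much to that of Cyp2d10, which lies between them and is not shown. AGGTCA was present in the windows of Cyp2b9 and Cyp2b13 and not in that of Cyp2b10. It occurred in 16 of 48 windows of members and in 14.0% of 32851 windows of all genes. TTCCGG was present in the window of Cyp2d9 and not in those of Cyp2d11 and Cyp2d10, and occurred in 3 of 48 windows of members and in 12.0% of all windows. These matches describe the letters of the windows and say nothing of a factor bound there.

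The arrays lay on 3 slides of 4. Floxed mice 1 to 4 shared slide 1, LKO mice 3 to 6 shared slide 3, and slide 2, with Floxed mice 5 and 6 and LKO mice 1 and 2, was the only one with both genotypes. Between 21614 and 24252 of 39429 probes were well above background on each array, and precision is limited by the number of mice, 6 of each genotype and 2 of each on slide 2. The log2 intensity of Phgdh averaged 5.18 in Floxed and 4.70 in LKO mice, a difference of -0.48 (SE 0.18, two-sided exact permutation p = 0.0346, n = 6 each) that came to -0.055 within slide 2. LKO mice 1 and 2, the LKO mice of slide 2, had 5.07 and 5.30, inside the Floxed range of 4.81 to 5.50, whereas LKO mice 3 to 6 had 4.23 to 4.66. Every value within slide 2 given below therefore rests on LKO mice whose Phgdh intensity lay inside the Floxed range. Another, dimmer probe for Phgdh passed the background on 1 of 6 Floxed and 3 of 6 LKO arrays, with values between 2.42 and 3.19 (Floxed) and between 2.21 and 3.73 (LKO), the highest in LKO mice 6, 4 and 3. Whether either probe lies in the deleted exons was not known here. Hepatocyte markers (Alb, Ttr, Apoa1, Apob, Serpina1c, Tat, Trf and Fgb) were all well above background on every array and 0 of 8 were called, as were 0 of 7 macrophage, 0 of 8 stellate cell, 0 of 4 lymphocyte, 0 of 4 red blood cell, 0 of 3 adipocyte and 0 of 3 pancreas acinar markers that were tested. Among other markers, Pecam1 of endothelial cells was higher in LKO mice (1 of 7 called, difference 0.70, 0.042 within slide 2), Cftr of bile duct cells was lower (1 of 3 called, -0.83) and Fabp2 of the intestine, also expressed in liver, was higher (1 of 1 called, 0.47). As a mean deviation of the list in each mouse, endothelial markers lay between -0.17 and 0.16 in Floxed and between -0.051 and 0.14 in LKO mice, and bile duct markers between -0.35 and 0.49 and between -0.55 and 0.39. The part of these in the results below was not tested.

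Little difference between the genotypes was detected in P450 genes of families 1 to 3. Intervals were wide for some members, as for Cyp2b9 (95% interval -1.35 to 1.60). Within slide 2, 21 of 43 tested members had another sign than over all mice. Of 43 tested members, 25 had a higher and 18 a lower mean log2 intensity in LKO mice, and the median difference (LKO minus Floxed) was 0.021, beside -0.0035 over all tested genes. The difference was below 0.5 in size for 42 members, and Cyp2a22 alone exceeded it. At the criterion of the study's array methods, an unadjusted limma p below 0.05, 1 member was called, Cyp2d9, which was lower in LKO mice. This is 2.33% of members, beside 8.35% of all 16915 genes (3.43% lower and 4.92% higher in LKO mice), so members were not called more often than the background. When the limma p-values were adjusted by Benjamini-Hochberg over all genes, 0 members and 0% of all genes passed at 0.05, and the lowest adjusted p of a member was 0.565. The values of the genotypes overlapped for every tested member, whereas they did not overlap for 50 genes (0.296%).

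**Figure D1:**
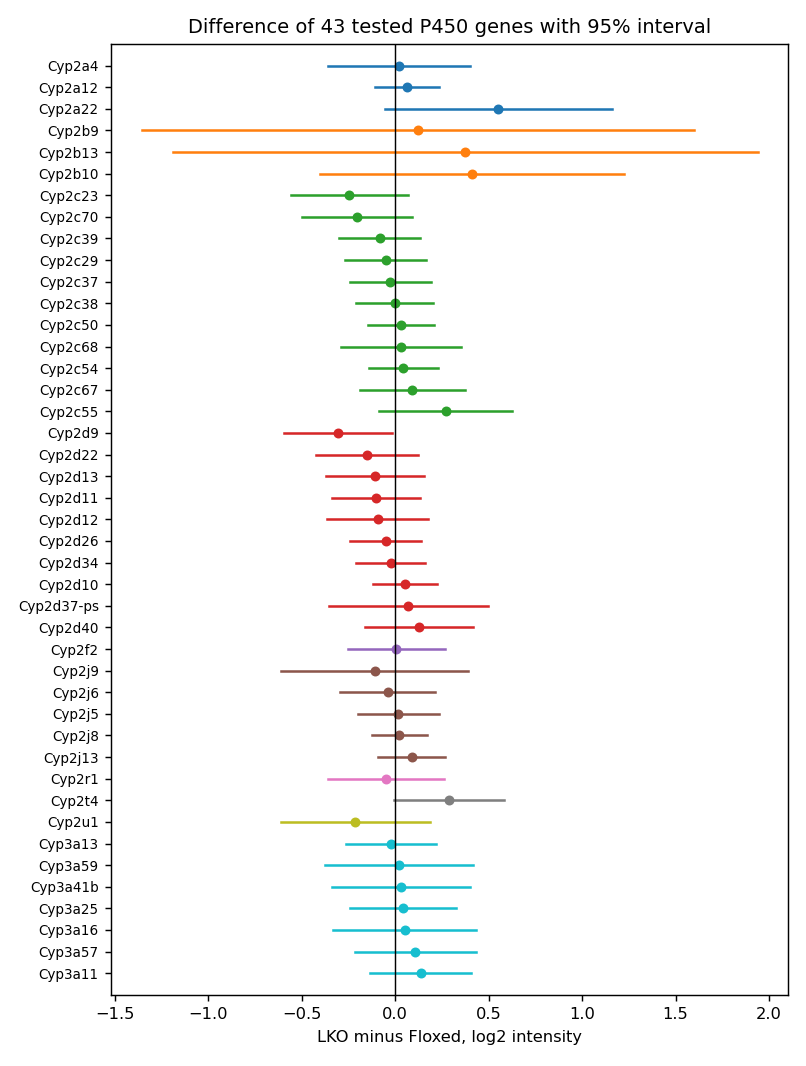
Difference in log2 intensity (LKO minus Floxed, x axis) of the 43 tested P450 genes of families 1 to 3, colored by subfamily and ordered within it. Points are limma estimates from 6 mice of each genotype and lines their 95% intervals. The interval of Cyp2d9 alone lies to one side of 0, and those of Cyp2b9 and Cyp2b13 are the widest.

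The Cyp2d subfamily, which in mice includes steroid hydroxylases and the counterpart of the human debrisoquine hydroxylase, was measured through 10 genes, all tested. In LKO mice 7 had lower and 3 higher means, with a median difference of -0.073, and 1 was called (10%, beside 8.35% of all genes). The 10 genes include Cyp2d37-ps, a pseudogene by its name, and Cyp2d13, whose RefSeq transcript is listed as non-coding. Cyp2d9, a male-predominant steroid hydroxylase under growth hormone control, had log2 intensities from 13.64 to 14.18 (median 13.80) in Floxed mice and from 13.16 to 13.88 (median 13.60) in LKO mice. LKO mice 1, 4 and 5 lay below every Floxed mouse, Floxed mice 3 and 5 lay above every LKO mouse, and the other 7 mice overlapped. The difference was -0.31 (SE 0.13, 95% interval -0.60 to -0.017), or 0.808-fold, with a limma p of 0.0395 (Benjamini-Hochberg adjusted p = 0.565) and a two-sided exact permutation p of 0.0584. Within slide 2 the difference was -0.29. With the slide as a fixed block Cyp2d9 was no longer called, and the same held without Floxed mouse 3, 4 or 5 or LKO mouse 1, 4 or 5, with differences from -0.37 to -0.23 over all single mice left out.

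Cyp2d26, the brightest of the subfamily, had log2 intensities from 17.27 to 17.47 (median 17.37) in Floxed mice and from 17.09 to 17.52 (median 17.30) in LKO mice. The LKO values enclosed those of the Floxed mice, and the difference was -0.052 (95% interval -0.25 to 0.14). Cyp2d22, most often compared with the human drug-metabolizing enzyme, differed by -0.15 (95% interval -0.43 to 0.12), and Cyp2d11, whose promoter is shown above, by -0.10 (-0.34 to 0.13). The largest higher mean was that of Cyp2d40, at 0.13 (-0.16 to 0.42). LKO mouse 5 had the lowest intensity of all 12 mice for 5 of 10 Cyp2d genes. How often it was lowest over all genes was not counted. Before normalization its array had the lowest 75th percentile of intensity, 239 beside 258 to 473 on the others, so a trait of the array and of the mouse cannot be told apart.

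Among the members, the Cyp2b genes stood out by their spread between mice. These enzymes are the classical targets of CAR and of phenobarbital, and Cyp2b9 and Cyp2b13 are female-predominant in mouse liver. Of 5 genes on the array 3 were tested and 0 were called, with a median difference of 0.37, from -0.046 to 0.68 with single mice left out. Cyp2b9 ranged from 3.98 to 7.67 (median 5.66) in Floxed mice and from 3.96 to 7.44 (median 6.14) in LKO mice. Cyp2b13 ranged from 4.22 to 8.28 (median 6.50) in Floxed mice and from 4.62 to 8.02 (median 7.09) in LKO mice. Both genes thus spanned nearly the same range in each genotype, with mice at either end in both. Cyp2b10, the gene most used as a readout of CAR, ranged from 10.97 to 12.87 (median 11.34) in Floxed mice and from 10.94 to 12.72 (median 12.24) in LKO mice, again with overlap over almost the whole range.

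The differences between genotypes were 0.12 (SE 0.68, 95% interval -1.35 to 1.60) for Cyp2b9, 0.37 (SE 0.72, -1.19 to 1.94) for Cyp2b13 and 0.41 (SE 0.38, -0.41 to 1.23) for Cyp2b10, so that changes of about the size of the spread in either direction were not detectable with 6 mice each. Within slide 2 the differences were -1.25, -1.34 and 0.11, and the sign of Cyp2b9 and Cyp2b13 thus turned. Without Floxed mouse 1, which was at or near the bottom for both, they were -0.22 and -0.046, and the sign of Cyp2b9 also turned without Floxed mouse 2 or LKO mouse 3, 4 or 5. Cyp2b10 stayed higher in LKO mice with any single mouse left out (0.25 to 0.68), and was not called in any of these fits.

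Between mice of one genotype, the standard deviation of log2 intensity was 1.34 for Cyp2b9, 1.42 for Cyp2b13 and 0.74 for Cyp2b10, above that of 99.9%, 99.9% and 98.4% of all tested genes, whose median was 0.22. These shares are over genes of all intensities. From the lowest to the highest mouse, the intensity differed 13.1-fold for Cyp2b9, 16.6-fold for Cyp2b13 and 3.83-fold for Cyp2b10. The lowest mice were dim for Cyp2b9 (3.96) and Cyp2b13 (4.22), unlike Cyp2b10 (10.94), so these 2 folds are limited by signal over background. The median standard deviation over all 43 tested members was 0.23, close to that of all genes. Apart from Cyp2b, the widest spreads were those of Cyp2a22 (0.54) and Cyp2j9 (0.44).

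**Figure D2:**
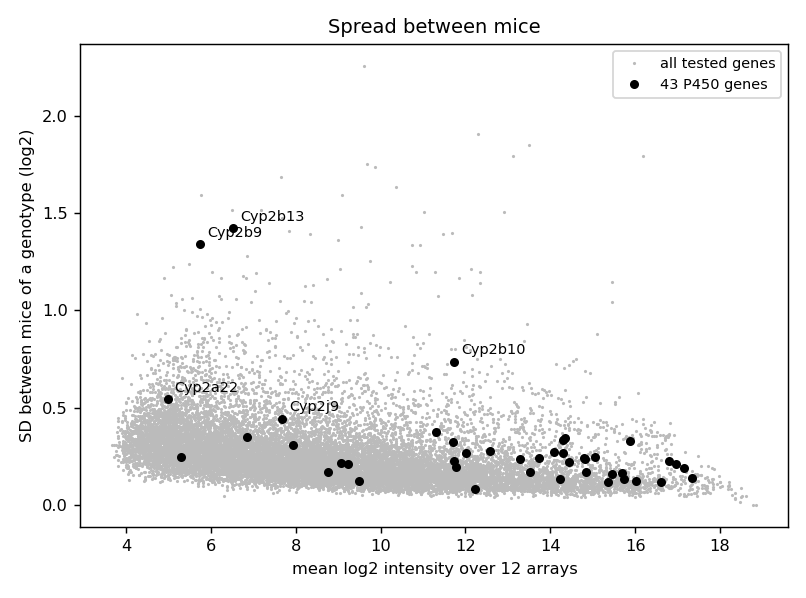
Standard deviation of log2 intensity between mice of one genotype (y axis) against the mean log2 intensity over 12 arrays (x axis) for every tested gene (grey) and the 43 tested P450 genes (black). Cyp2b9 and Cyp2b13 stand at 1.34 and 1.42, far above the bulk of genes, and the other members lie among the grey points.

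The same mice were high and the same mice low for all 3 Cyp2b genes. Floxed mouse 4 and LKO mice 3, 4 and 5 were the 4 highest for each, and Floxed mice 1 and 2 and LKO mice 1 and 6 the 4 lowest. Averaged over the 3 genes as a deviation from each gene's mean, Floxed mouse 4 stood at 1.60 and LKO mice 4, 5 and 3 at 1.29, 1.07 and 1.06, while Floxed mouse 1 stood at -1.61 and LKO mouse 1 at -1.46. The high mice thus came from slides 1 and 3 and the low mice from all 3 slides. Of 16894 genes compared, 35 (0.207%) had the same 4 highest mice, among them Cyp2c55, and 4 (0.0237%) had the same 4 highest and the same 4 lowest. These 4 were the 3 Cyp2b genes, which defined the sets and so had to match, and 1 probe without a gene name. Because Cyp2b9 and Cyp2b13 are close copies, it was not known how far each probe also binds the transcript of the other, and their agreement is to be read with that limit.

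**Figure D3:**
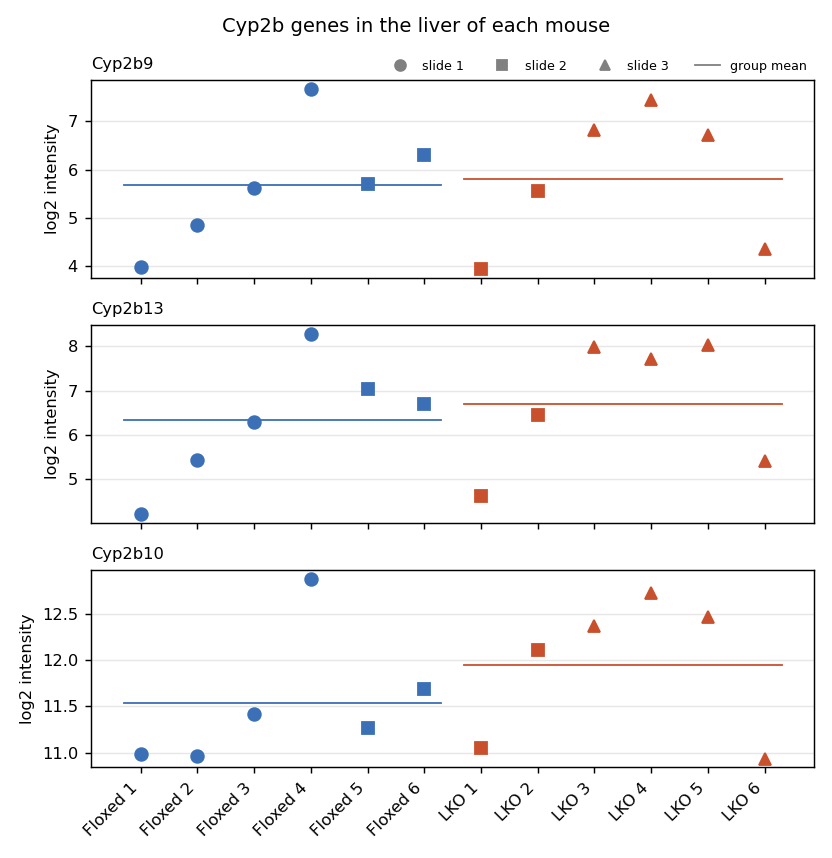
Log2 intensity of Cyp2b9, Cyp2b13 and Cyp2b10 (y axis, a scale for each gene) in the liver of each mouse (x axis), with Floxed mice in blue and LKO mice in orange. The marker gives the slide and the line the mean of a genotype. Floxed mouse 4 and LKO mice 3, 4 and 5 are the highest in each panel.

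No other tested female-predominant P450 gene had the same 4 highest mice, though parts of the order were shared. The list held 11 genes, of which 7 were tested and 0 called: Cyp2b9, Cyp2b10, Cyp2b13, Cyp2a4, Cyp2c39, Cyp3a16 and Cyp3a41b. For Cyp3a16 and Cyp3a41b the 4 highest mice were Floxed mouse 2 and LKO mice 1, 2 and 3, and LKO mouse 5, high for the Cyp2b genes, was among the 4 lowest. Cyp3a16 and Cyp3a41b are again close copies, with 91.3% identity between their promoter windows, and how far their probes bind each other's transcripts or those of other Cyp3a genes was not known. Among male-predominant liver genes 13 were tested, and 0 were called higher and 1 lower (7.69%, beside 8.35% of all genes). The called gene was Cyp2d9, the member already described. Hsd3b5, a male-predominant steroid dehydrogenase, lay between 12.00 and 13.39 in Floxed mice and between 9.28 and 13.08 in LKO mice, with a difference of -1.13 (two-sided exact permutation p = 0.0996, limma adjusted p = 0.633) that came to -0.32 within slide 2 and to -0.66 without LKO mouse 4. LKO mice 4 and 5 had its lowest values, 9.28 and 10.61. Hsd3b5 was named after its values were seen. Differences of the 13 male-predominant genes went both ways, from -1.13 (Hsd3b5) to 0.32 (Elovl3), with a median of -0.071. Outside families 1 to 3, only 2 of 11 female-predominant genes were well above background on all arrays, and 0 were called.

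The Cyp2c subfamily, which oxidizes drugs and arachidonic acid, was the largest, with 13 genes on the array and 11 tested. In LKO mice 5 had higher and 6 lower means, 0 were called, and the median difference was -0.0041, nearly the same as that of all genes. Cyp2c50, the brightest, ranged from 15.94 to 16.09 (median 16.02) in Floxed mice and from 15.83 to 16.27 (median 16.02) in LKO mice. The medians were almost equal, and the difference was 0.029 (95% interval -0.15 to 0.21). Cyp2c55, with the largest difference, ranged from 7.43 to 8.15 (median 7.87) in Floxed mice and from 7.63 to 8.49 (median 8.11) in LKO mice. Its highest values were those of LKO mice 4 and 3, and the difference of 0.27 (SE 0.16, exact permutation p = 0.162, limma adjusted p = 0.767) fell to 0.044 within slide 2.

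Lower means in LKO mice included Cyp2c23, an arachidonic acid epoxygenase, at -0.25 (95% interval -0.56 to 0.070; 0.10 within slide 2, where the sign turned), and Cyp2c70, which makes the muricholic acids of mouse bile, at -0.21 (-0.50 to 0.089; -0.32 within slide 2). For the other 8 tested Cyp2c genes, including Cyp2c29, Cyp2c37, Cyp2c38 and Cyp2c39, the difference of the brightest probe lay between -0.084 and 0.092. Another Cyp2c38 probe differed by 0.27, about as much as Cyp2c55. It was far dimmer, with a mean of 5.57 in Floxed mice beside 15.46 for the brightest. LKO mouse 5 was the lowest of all mice for 7 of 11 Cyp2c genes, but for 0 of 3 Cyp2b genes, again without a count over all genes to set beside it. Probes of one gene did not always go the same way: of 11 members with several probes above background, 5 had probes of both signs, namely Cyp2c37, Cyp2c38, Cyp2c54, Cyp2c67 and Cyp2r1.

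**Figure D4:**
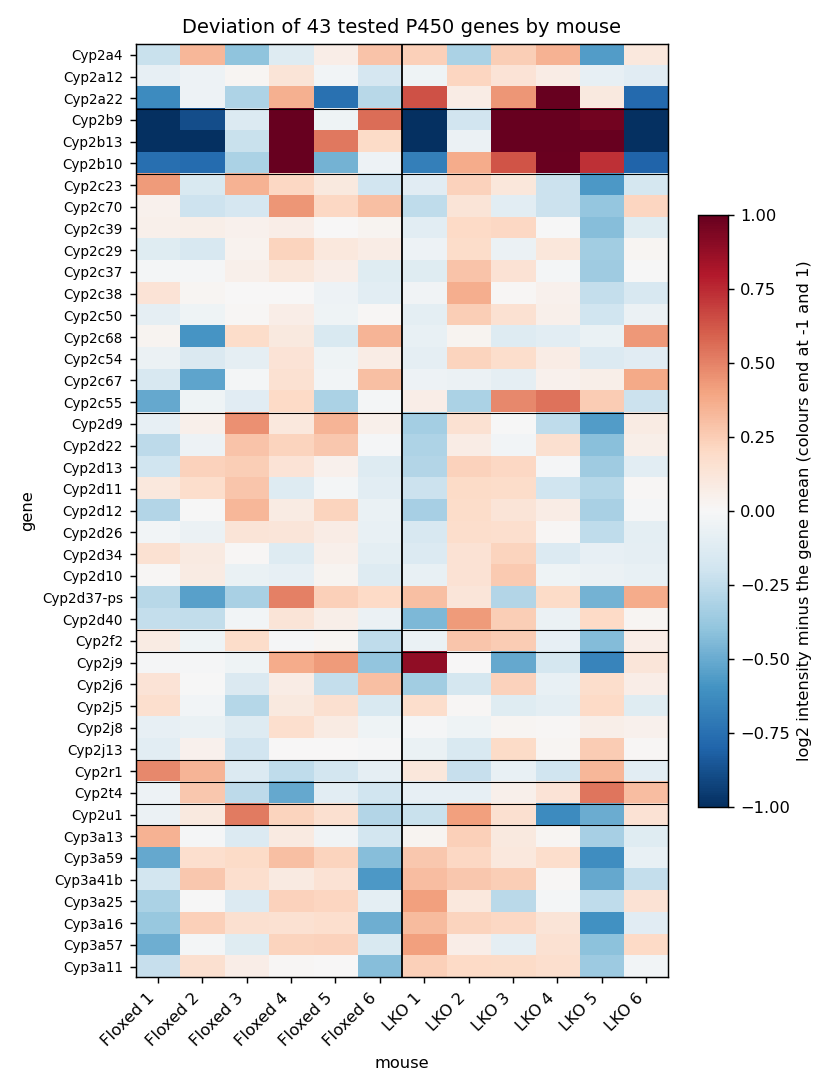
Deviation of log2 intensity from the mean of each gene over 12 mice for the 43 tested P450 genes (rows, by subfamily) in each mouse (columns, 6 Floxed left of the line and 6 LKO right of it). Colors end at -1 and 1. Cyp2b9 and Cyp2b13 reach both ends of the scale in both genotypes, and LKO mouse 5 is below the mean for most Cyp2c, Cyp2d and Cyp3a genes.

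The Cyp3a subfamily, the main targets of PXR and the largest group of drug oxidases by substrate range, had 8 genes on the array and 7 tested. In LKO mice 6 had higher and 1 lower means, 0 were called, and the median difference was 0.041, from -0.042 to 0.14 with single mice left out. Cyp3a11, the principal Cyp3a enzyme of adult mouse liver, ranged from 16.38 to 16.96 (median 16.81) in Floxed mice and from 16.44 to 17.04 (median 16.98) in LKO mice. The ranges overlapped except that the highest values were those of LKO mice, and the difference was 0.14 (SE 0.13, 95% interval -0.13 to 0.41), with 0.43 within slide 2. The other tested Cyp3a genes (Cyp3a13, Cyp3a16, Cyp3a25, Cyp3a41b, Cyp3a57 and Cyp3a59) differed by -0.025 to 0.11, each by its brightest probe. Dimmer probes above background on all arrays differed by 0.34 for Cyp3a59, -0.20 for Cyp3a13 and 0.0071 for Cyp3a11. Cyp3a11, Cyp3a16, Cyp3a41b and Cyp3a59 had the same 4 lowest mice, Floxed mice 1 and 6 and LKO mice 5 and 6. With the slide as a block, which rests on slide 2, the median difference of the subfamily was 0.34.

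Cyp2a genes hydroxylate steroids and coumarin, and all 3 had higher means in LKO mice with 0 called. Cyp2a22 ranged from 4.23 to 5.34 (median 4.69) in Floxed mice and from 4.20 to 6.15 (median 5.25) in LKO mice. LKO mice 4, 1 and 3 were the highest and LKO mouse 6 the lowest of all mice. Its difference of 0.55 (SE 0.28, 95% interval -0.054 to 1.16, exact permutation p = 0.110, limma adjusted p = 0.664) was the largest of any tested member and came to 0.87 within slide 2. It passed the unadjusted limma criterion on slide 2 alone, with 75th percentile scaling (0.68), and without Floxed mouse 4 (0.68) or LKO mouse 6 (0.76). The same held with same-numbered mice of the genotypes as a block. Cyp2a4, a female-predominant steroid hydroxylase, ranged from 15.49 to 16.22 (median 15.86) in Floxed mice and from 15.33 to 16.24 (median 16.06) in LKO mice, with a difference of 0.021 (95% interval -0.36 to 0.40). Cyp2a12 differed by 0.062 (-0.11 to 0.23).

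Of the 6 Cyp2j genes, which act on arachidonic acid, 5 were tested and 0 called, with differences from -0.11 to 0.087. Cyp2j8, the brightest, ranged from 12.10 to 12.40 (median 12.17) in Floxed mice and from 12.19 to 12.28 (median 12.24) in LKO mice, with a difference of 0.022 (95% interval -0.13 to 0.17). Its standard deviation between mice was 0.083, below that of all but 3.13% of genes. Cyp2j9 ranged from 7.28 to 8.10 (median 7.66) in Floxed mice and from 7.02 to 8.56 (median 7.59) in LKO mice, its extremes being LKO mouse 1 at the top and LKO mouse 5 at the bottom. Its difference was -0.11 (95% interval -0.61 to 0.39) over all mice and 0.43 within slide 2.

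The remaining subfamilies had 1 tested gene each and 0 called. Cyp2f2, which oxidizes naphthalene, ranged from 16.72 to 17.16 (median 16.98) in Floxed mice and from 16.54 to 17.25 (median 16.97) in LKO mice, with a difference of 0.0060 (95% interval -0.25 to 0.27). Cyp2r1, the vitamin D hydroxylase of liver, ranged from 11.77 to 12.51 (median 11.91) in Floxed mice and from 11.80 to 12.36 (median 11.94) in LKO mice, with a difference of -0.051 (-0.36 to 0.26). In both genes the genotypes covered nearly the same range. Cyp2u1, a fatty acid hydroxylase, ranged from 6.55 to 7.36 (median 6.97) in Floxed mice and from 6.21 to 7.25 (median 6.80) in LKO mice, with a difference of -0.21 (-0.61 to 0.18). Cyp2t4 ranged from 4.79 to 5.56 (median 5.15) in Floxed mice and from 5.21 to 5.83 (median 5.39) in LKO mice. All LKO mice were within or above the Floxed range, and the difference was 0.29 (SE 0.14, exact permutation p = 0.0736, limma adjusted p = 0.611), with 0.070 within slide 2.

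The other 11 members were not tested, because they were not well above background on all 12 arrays. Cyp1a1, the classical target of Ahr, was above background on 6 of 6 Floxed and 5 of 6 LKO arrays, with log2 intensities from 4.03 to 4.65 (median 4.22) and from 3.61 to 4.36 (median 4.09). These values overlapped, and the means differed by -0.25 (-0.37 within slide 2). Cyp1b1, also induced through Ahr, was above background on 0 of 12 arrays, and so were Cyp2b19, Cyp2b23, Cyp2c65, Cyp2j11 and Cyp2w1. Cyp2s1 was above background on 5 of 6 Floxed and 6 of 6 LKO arrays, with means of 4.42 and 4.49. Cyp3a44, a female-predominant gene, was above background on 1 of 6 Floxed and 0 of 6 LKO arrays and no fold is given.

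Cyp2c66 was above background on 0 of 6 Floxed and 4 of 6 LKO arrays. The 4 arrays were LKO mice 3 to 6, all on slide 3, with log2 intensities from 4.51 to 5.03, while LKO mice 1 and 2 on slide 2 had 3.41 and 2.35 and the Floxed mice 2.06 to 3.80. The mean was 4.14 in LKO and 2.95 in Floxed mice. Because LKO mice 1 and 2 were not above background either, no fold is given. Within slide 2 the difference was 0.28, and genotype and slide cannot be told apart for LKO mice 3 to 6.

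Cyp2g1, known from the olfactory mucosa, was above background on 5 of 6 Floxed and 6 of 6 LKO arrays. Floxed mouse 1 had a log2 intensity of 1.29, while the other Floxed mice lay between 6.09 and 8.50 and the LKO mice between 6.91 and 7.66. The means differed by 1.13, with -0.76 within slide 2, where this array was absent.

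**Figure D5:**
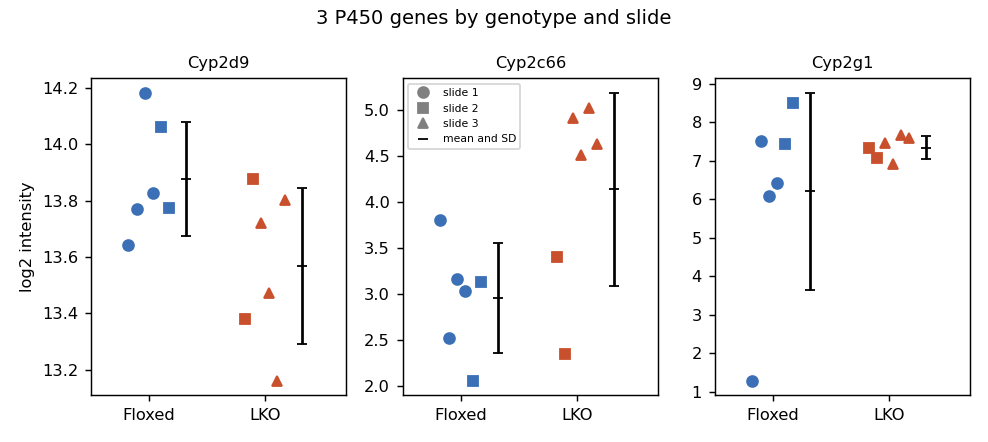
Log2 intensity (y axis, a scale for each gene) of Cyp2d9, Cyp2c66 and Cyp2g1 in 6 Floxed and 6 LKO mice, with the slide as marker and the mean and standard deviation of each genotype as bars. LKO mice 1, 4 and 5 lie below all Floxed mice for Cyp2d9, the arrays of slide 3 stand above all others for Cyp2c66, and Floxed mouse 1 stands at 1.29 for Cyp2g1.

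Genes that regulate or serve the P450 enzymes were read from lists beside the members. Of 38 tested receptors and transcription factors of P450 genes, 1 was called higher and 3 lower in LKO mice, 10.5% beside 8.35% of all genes, with a median difference of -0.053. A share this near the background is no result about the list, and the called genes are given as values. Nr1i3, Nr1i2 and Ahr differed by -0.047 (95% interval -0.30 to 0.20), -0.22 (-0.61 to 0.16) and -0.14 (-0.38 to 0.10). The liver pioneer factors Foxa3 and Foxa1 were lower by limma at the unadjusted criterion (-0.65 and -0.66, Benjamini-Hochberg adjusted p = 0.273 and 0.391). Within slide 2 they differed by -0.57 and -0.60. The clock output factor Hlf was also lower by this criterion (-0.28, limma adjusted p = 0.490, -0.43 within slide 2). Foxa3 was the one whose genotypes did not overlap, beside 0.296% of all genes. Its values were 9.736 to 10.33 in Floxed and 8.93 to 9.725 in LKO mice, so the genotypes nearly touched. Stat5a was higher (0.37, adjusted p = 0.410; 0.51 within slide 2).

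Of 19 tested genes for electron supply and haem, 1 was called (5.26%, below the 8.35% of all genes), Pgrmc2, a haem-binding membrane protein, which was higher (0.32, limma, Benjamini-Hochberg adjusted p = 0.588), and the median difference was 0.041. Por differed by -0.24 (95% interval -0.73 to 0.24; -0.78 within slide 2). Alas1, which sets the rate of haem synthesis, ranged from 14.21 to 16.53 (median 15.62) in Floxed mice and from 13.38 to 15.60 (median 14.88) in LKO mice, a difference of -0.62 (-1.60 to 0.35; -0.98 within slide 2). Of 23 tested targets of Ahr, CAR and PXR outside the P450 families, 2 were called higher and 0 lower (8.70%, beside 8.35% of all genes), the exporter Abcc4 (0.40, limma, Benjamini-Hochberg adjusted p = 0.438) and the glutathione transferase Gstm1 (0.20, adjusted p = 0.578), with a median difference of 0.14.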

How the data were processed

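Liver RNA of 6 Floxed and 6 LKO mice was measured on 12 single-color Agilent arrays, grouped by sample label. The authors deposited for each array the scanner intensity of every spot, including a processed intensity corrected for background and without normalization between arrays, together with their own quantile-normalized table of linear intensity values, which served as an alternative. The labels name Agilent Feature Extraction 9.5.1.1 and the headers of the array data 10.7.1.1, and the labels and the methods of the study name different RNA kits. The probes were designed on a different build, and their coordinates are left out, and probe sequences were not analysed here.

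Control spots (1377 per array) were left out of 12 arrays, leaving 43020 spots of 39429 probes. Log2 values of the processed intensity were quantile-normalized across arrays, outlier spots (0.298%) were set missing, and spots of a probe were averaged. Probes had to be well above background on each of the 12 arrays (20404 probes), since detection p-values were not used here. Genes were named by RefSeq accession through GRCm38.p6 (94.3% of accessions matched), and each gene was represented by its brightest kept probe. This gave 16916 genes, of which 1 could not be fitted. No member spot was saturated. Intensities of different probes were not compared as levels.

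Genotypes were compared with limma 3.58.1 (R 4.3.3; lmFit and eBayes, no covariates, all 12 arrays). The threshold for a call was an unadjusted p below 0.05, as in the study's array methods, and p-values were adjusted over all genes by Benjamini-Hochberg. Single values were compared by two-sided exact permutation over all 924 arrangements. Members named are those called, those without overlap, the brightest and the most different of Cyp2b, Cyp2c, Cyp2d and Cyp3a, the brightest of each other subfamily, the 5 with the largest spread, Cyp1a1, Cyp1b1 and those not well above background on any array of 1 genotype only. Other members were named after their values were seen. Members, lists and alternatives were chosen with earlier results of these data known. Alternatives covered scaling to the 75th percentile, normexp with an offset of 50 (on median intensity, since no mean was given), the table of the authors, outlier spots, the filter on dim probes, the mean of probes, thresholds, the t-test of the methods, the slide, the replicate number and each mouse left out. The code was tested on simulated data.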

Additional observations from a re-analysis of the deposited data

Results flagged for a closer look

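In 48 groups of 6 mice, a single mouse stood far from the other 5 of its genotype in 1, where chance gives about 5% of groups. For Cyp2g1, Floxed mouse 1 had a log2 intensity of 1.29, not above background, while the other 5 Floxed mice lay between 6.09 and 8.50. Whether this was a matter of the spot, the array or the mouse was not tested.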

How the results depend on the processing

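The number of members called was 1, and it became 3 with 75th percentile scaling (Cyp2a22, Cyp2d9 and Cyp2t4), 2 without a filter on dim probes (Cyp2c66 and Cyp2d9), 2 with the slide as a random block (Cyp2d9 and Cyp2t4), and 0 with the slide as a fixed block, with adjusted p, with p and a log2 difference of at least 1, and with the t-test of the methods, which called 1236 genes at its unadjusted threshold and 1 after Benjamini-Hochberg. It ranged from 0 to 4 with single mice left out, the 4 (Cyp2c23, Cyp2c55, Cyp2d9 and Cyp2t4) without LKO mouse 2. Over all genes, 1413 were called (832 higher and 581 lower), and 2791 without the filter, 317 with the slide as a fixed block, 512 on slide 2 only, 88 at a log2 difference of at least 1, 0 with adjusted p, and 1103 to 1838 with single mice left out. With 75th percentile scaling the split was 1127 higher and 316 lower. Replicate numbers were shared between genotypes, but same-numbered mice did not deviate together (r from -0.24 to 0.32, and for 1 of 6 numbers the pair correlated best). The controls were littermates and the animal numbers of same-numbered mice are consecutive, but whether a number marks a litter is not stated. With the replicate number as a block, 1428 genes and 1 member were called, Cyp2a22, and Cyp2d9 was not.

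With the slide as a fixed block and on slide 2 only, the median difference became -1.25 for Cyp2b and 0.34 for Cyp3a, and that of Phgdh became -0.055, no longer called (-0.34 with 75th percentile scaling, also not called). Within slide 2, 21 of 43 tested members had another sign than over all mice. Of the members named by the rule these were Cyp2a4 (-0.21), Cyp2b9 (-1.25), Cyp2b13 (-1.34), Cyp2d26 (0.012), Cyp2j8 (-0.046), Cyp2j9 (0.43), Cyp2r1 (0.080) and Cyp2u1 (0.16). Signs also turned for Cyp2f2 with 75th percentile scaling (-0.020) and the slide as a random block (-0.013), Cyp2j8 with normexp (-0.017) and Cyp2r1 with the mean of probes (0.041). With single mice left out, signs turned within ranges of -0.057 to 0.14 for Cyp2a4, -0.22 to 0.52 for Cyp2b9, -0.046 to 0.79 for Cyp2b13, -0.017 to 0.073 for Cyp2c50, -0.048 to 0.093 for Cyp2f2, -0.0010 to 0.058 for Cyp2j8, -0.30 to 0.0098 for Cyp2j9 and -0.12 to 0.041 for Cyp2r1. The median difference ranged from -0.046 to 0.68 for Cyp2b, -0.077 to 0.043 for Cyp2c, -0.12 to -0.025 for Cyp2d and -0.042 to 0.14 for Cyp3a. Outside the members, Hsd3b5 ranged from -1.42 to -0.66 and was called without LKO mouse 2 or 6, an alternative chosen after seeing the data. The cause was not tested. Slide 2 has 2 mice of each genotype, so values resting on it have wide errors. Dim members such as Cyp2a22 and Cyp2t4, and the lowest mice of Cyp2b9 and Cyp2b13, are limited by signal over background.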
